A study of Mus musculus with 12 samples.

Results

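Levels of 10 genes for acute phase proteins, chemokines and a receptor were compared in 3T3-L1 cells with and without knockdown of Fto: Saa3, Lcn2, Hp, Ptx3, Ccl2, Ccl7, Cxcl1, Cxcl5, Cxcl12 and Il1rl1. They were picked by symbol, around the rise of Saa3 after knockdown at the differentiation stage, from the 55487 genes of a table of TPM values (a level scaled to transcript length and to a fixed total). Each symbol had its row, and all 10 were among the 15968 genes tested, which reached 1 TPM in 2 or more libraries. Because the choice used the comparison of the lines at the differentiation stage, that comparison is given for the 10 genes as a description, with no test.

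3T3-L1 is a line of mouse fibroblasts, or preadipocytes, that become fat cells when induced with hormones. The cells had been transduced with a lentivirus for a scrambled hairpin (shScram, the control) or for a hairpin that targets Fto (shFTO), and both lines had been selected with puromycin. Total RNA was fragmented and sequenced from preadipocytes (Pre), from cells at mitotic clonal expansion (MCE), when induced preadipocytes divide again, and from cells that the labels call mature adipocytes (Diff), with 2 libraries in each of the 6 groups. Cells of the MCE and Diff groups of both lines had received the induction cocktail of IBMX, dexamethasone and insulin. Which of the hairpins against Fto the sequenced cells carried is not given in the sources used here, so line and hairpin cannot be told apart. Nothing says that the libraries of a group came from separate cultures, so the p-values measure the spread between libraries, which may be technical.

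Fto read 52.7 to 73.5 TPM in the 6 shScram libraries and 5.51 to 7.47 TPM in the 6 shFTO libraries, 9.96% of the control at Pre, 10.8% at MCE and 10.1% at Diff. Replicate 1 of shScram at Diff carries a treatment entry that names the knockdown, and its title was followed. Its Fto level of 73.5 TPM was among the control values. The libraries of shScram Pre correlated at r = 0.939 across genes, against 0.990 to 0.993 within the other groups, so this pair stands apart. Values at Pre are also given without its replicate 1, though the correlation does not show which of the pair is off. Without replicate 2 they moved the other way, as from 0.74 to 1.03 for Ptx3 and from 0.94 to 1.26 for Ccl2. Either fit leaves 1 control library at Pre, so a smaller p-value there is no stronger evidence. Adipocyte markers (6 genes) summed to 1094 to 1141 TPM in shScram Diff and to 172 to 192 TPM in shFTO Diff, while fibroblast markers (6 genes) summed to 4219 to 4368 TPM and 6869 to 7186 TPM. At MCE the adipocyte markers summed to 306 to 316 TPM in shScram MCE and 94.6 to 101.9 TPM in shFTO MCE, and the fibroblast markers to 2596 to 2825 TPM and 4444 to 4844 TPM. The fibroblast sum did not hold for each marker. Dlk1 was lower after knockdown at MCE, where control libraries had 1182 and 1106 TPM but knockdown libraries only 484 and 431 TPM. The remaining fibroblast markers were higher in shFTO MCE. Col3a1 gained the most TPM, from 859 and 747 without knockdown to 2915 and 2647 with it. At Diff, Dlk1 was nearly level between the lines (888 and 822 TPM against 899 and 909 TPM). The part of these shifts in the results at either stage was not tested. By these sums the adipocyte markers were low for the label in shFTO Diff. In bulk RNA, fewer cells of a type and less RNA per cell cannot be told apart.

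Acute phase proteins are secreted proteins whose amount in blood changes during inflammation. The liver makes most of them, but adipocytes and fibroblasts also make serum amyloid A3, lipocalin 2, haptoglobin and pentraxin 3. Chemokines are small secreted proteins that direct the movement of leukocytes, and many of their genes, like many acute phase genes, are induced by cytokines through NF-kB and C/EBP transcription factors. Il1rl1 encodes ST2, the receptor for the cytokine IL-33.

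The stretch around the start of the gene is shown for the 5 members whose window held a match to either motif searched. C/EBP factors, which act early in adipocyte differentiation, are among the known regulators of such genes. The windows are RefSeq sequences on GRCm38.p6, from 250 bases before to 50 bases from the start, on the gene's strand, 5′ to 3′. Capitals mark matches to TTNNGCAA, a form of the sequence that C/EBP factors bind, and to the NF-kB motif, each searched on both strands. Of 10 members, 6 were matched to a window, and that of Cxcl12, which held neither motif, is not printed.
Saa3, chr7:46715627-46715926, minus strand: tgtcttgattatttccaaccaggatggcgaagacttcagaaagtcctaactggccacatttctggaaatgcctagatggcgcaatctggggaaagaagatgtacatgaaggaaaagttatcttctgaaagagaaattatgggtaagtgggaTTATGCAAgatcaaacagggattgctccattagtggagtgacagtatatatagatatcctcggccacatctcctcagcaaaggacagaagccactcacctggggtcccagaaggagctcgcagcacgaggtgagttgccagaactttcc
Lcn2, chr2:32387690-32387989, minus strand: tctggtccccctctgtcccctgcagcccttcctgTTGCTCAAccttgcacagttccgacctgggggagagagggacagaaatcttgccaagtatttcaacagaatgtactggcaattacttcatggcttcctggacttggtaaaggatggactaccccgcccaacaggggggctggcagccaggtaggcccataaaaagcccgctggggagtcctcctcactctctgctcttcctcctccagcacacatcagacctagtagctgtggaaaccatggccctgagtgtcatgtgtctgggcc
Ptx3, chr3:66219637-66219936, plus strand: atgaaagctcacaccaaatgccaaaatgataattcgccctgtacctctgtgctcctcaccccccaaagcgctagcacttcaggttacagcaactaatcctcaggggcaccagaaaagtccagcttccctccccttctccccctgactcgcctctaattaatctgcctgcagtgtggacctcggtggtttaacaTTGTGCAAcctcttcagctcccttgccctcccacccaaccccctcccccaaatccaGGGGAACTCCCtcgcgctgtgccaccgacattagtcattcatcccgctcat
Il1rl1, chr1:40429320-40429619, plus strand: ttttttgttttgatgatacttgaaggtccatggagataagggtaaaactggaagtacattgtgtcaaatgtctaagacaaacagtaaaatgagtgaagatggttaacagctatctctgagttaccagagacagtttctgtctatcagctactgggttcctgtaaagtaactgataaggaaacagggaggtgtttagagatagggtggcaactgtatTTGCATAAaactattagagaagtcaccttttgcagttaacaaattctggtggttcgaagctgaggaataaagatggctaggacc
Cxcl1, chr5:90890995-90891294, plus strand: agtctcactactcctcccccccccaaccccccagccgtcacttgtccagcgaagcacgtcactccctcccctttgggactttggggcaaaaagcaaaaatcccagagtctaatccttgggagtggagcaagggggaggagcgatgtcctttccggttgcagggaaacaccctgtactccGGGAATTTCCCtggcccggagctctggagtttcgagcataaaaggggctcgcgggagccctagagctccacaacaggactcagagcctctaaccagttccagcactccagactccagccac

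TTNNGCAA was found in the windows of 4 of 6 members, at bases -99 to -92 of Saa3 and -57 to -50 of Ptx3 on the gene's strand and at -216 to -209 of Lcn2 and -34 to -27 of Il1rl1 on the other strand, counted from the start. Among all 32851 windows of the table, 10.8% held it. The NF-kB motif lay at bases -71 to -61 of Cxcl1 and across the start of Ptx3, from -1 to 10, where several matches overlap, and 8.46% of all windows held it. Ptx3 thus held both motifs at separate places. Il1rl1 has another listed start, at chr1:40439379-40439678, whose window held neither motif. A match is a description of letters and not a site of binding.

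Saa3 (ENSMUSG00000040026, chromosome 7, 46711998 to 46715700, minus strand, GRCm38) encodes serum amyloid A3, an acute phase apolipoprotein made outside the liver in inflamed fat. At Pre it read 2.08 and 0.952 TPM in shScram, against 42.1 and 26.6 TPM in shFTO. At MCE the levels were 35.6 and 46.4 TPM in shScram against 403 and 407 TPM in shFTO. The shFTO libraries lay above the shScram libraries at both stages with no overlap, and shFTO preadipocytes were already at the level of induced shScram cells. The difference on the log2(TPM + 1) scale was 3.81 ± 0.26 (SE, n = 2 and 2) at Pre (limma, adjusted p = 6.82e-05; 4.14 without shScram Pre replicate 1, adjusted p = 2.93e-06) and 3.29 ± 0.26 at MCE (adjusted p = 8.05e-05), a 9.89-fold difference of the mean TPM at MCE. At Diff, the comparison that chose the gene, Saa3 read 31.6 and 29.1 TPM in shScram, against 1949 and 1619 TPM in shFTO, a 58.7-fold difference. Between MCE and Diff the shScram libraries moved down slightly and the shFTO libraries moved up, with no test given. Among the genes tested, Saa3 ranked 5154 by mean TPM in shScram Diff and 79 in shFTO Diff. In order, shFTO Diff lay above shFTO MCE, the groups shScram MCE, shFTO Pre and shScram Diff overlapped their neighbours, and shScram Pre was lowest.

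Hp (ENSMUSG00000031722, chromosome 8, 109575128 to 109579172, minus strand) encodes haptoglobin, which binds free haemoglobin in plasma. It was listed at 0 and 0.254 TPM in shScram Pre and read 10.5 and 8.50 TPM in shFTO Pre. At MCE it read 22.1 and 28.6 TPM in shScram, against 182 and 187 TPM in shFTO. The shFTO libraries were higher at both stages with no overlap. The difference was 3.22 ± 0.16 on the log2 scale at Pre (adjusted p = 1.60e-05; 3.06 without shScram Pre replicate 1, adjusted p = 1.21e-06) and 2.82 ± 0.16 at MCE (adjusted p = 1.94e-05), where the mean TPM differed 7.26-fold. No fold is given at Pre, since a control library was listed at 0 and the log2 difference there depends on the pseudocount (5.66 with 0.1 in place of 1). At Diff, Hp read 95.2 and 91.1 TPM in shScram, against 1837 and 1794 TPM in shFTO, a 19.5-fold difference. It ranked 1633 by mean TPM in shScram Diff and 76 in shFTO Diff, beside Saa3. The 6 groups did not overlap, and within each line the level rose from stage to stage.

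Lcn2 (ENSMUSG00000026822, chromosome 2, 32384633 to 32388252, minus strand) encodes lipocalin 2, which binds iron-carrying siderophores of bacteria and is released by adipocytes. It was low at Pre, at 3.86 and 2.76 TPM in shScram, against 11.4 and 7.93 TPM in shFTO. At MCE it reached 717 and 776 TPM in shScram but 417 and 424 TPM in shFTO. The order of the lines was therefore opposite at these stages, with no overlap at either. The log2 difference was 1.30 ± 0.17 at Pre (adjusted p = 0.00169; 1.48 without shScram Pre replicate 1, adjusted p = 0.000115) and -0.83 ± 0.17 at MCE (adjusted p = 0.0117). The MCE call was lost without any 1 of the 4 MCE libraries, with adjusted p-values of 0.0534 and 0.0851 without shScram replicates 1 and 2 and 0.0803 and 0.0742 without shFTO replicates 1 and 2. The change of the difference from Pre to MCE was itself called, at -2.12 ± 0.25 (adjusted p = 0.00232). At Diff, Lcn2 read 373 and 379.9 TPM in shScram, against 622 and 569.6 TPM in shFTO, with shFTO again higher by 1.58-fold. From MCE to Diff the gene fell in shScram by 0.98 on the log2 scale (adjusted p = 0.00446), while the shFTO value was 0.50 ± 0.17 (adjusted p = 0.0636).

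Ptx3 (ENSMUSG00000027832, chromosome 3, 66219910 to 66225805, plus strand) encodes pentraxin 3, a long pentraxin that recognises microbes and is made at the site of inflammation. It lies across Veph1 on the opposite strand, so its values are uncertain where reads of the pair could not be separated. At Pre it read 50.6 and 76.5 TPM in shScram, against 104 and 105 TPM in shFTO. At MCE the shScram libraries read 24.8 and 22.7 TPM and the shFTO libraries 108 and 99.4 TPM. From Pre to MCE, Ptx3 thus fell in shScram cells (log2 -1.36 ± 0.17, adjusted p = 0.000475), and its value in shFTO cells was -0.01 ± 0.17 (adjusted p = 0.970), with all shFTO values above all shScram values of the same stage. The log2 difference between the lines was 0.74 ± 0.17 at Pre (adjusted p = 0.0165; 0.45 without shScram Pre replicate 1, adjusted p = 0.00405) and 2.08 ± 0.17 at MCE (adjusted p = 9.73e-05). The change of this difference was 1.34 ± 0.24 (adjusted p = 0.0180), and it was no longer called when 1 of the shFTO Pre, shScram MCE or shFTO MCE libraries was left out (adjusted p = 0.0631 to 0.0937) or when only the Pre and MCE libraries were fitted (adjusted p = 0.0929). At Diff the levels were 33.2 and 33.0 TPM against 126 and 126 TPM, a 3.80-fold difference.

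**Figure D1:**
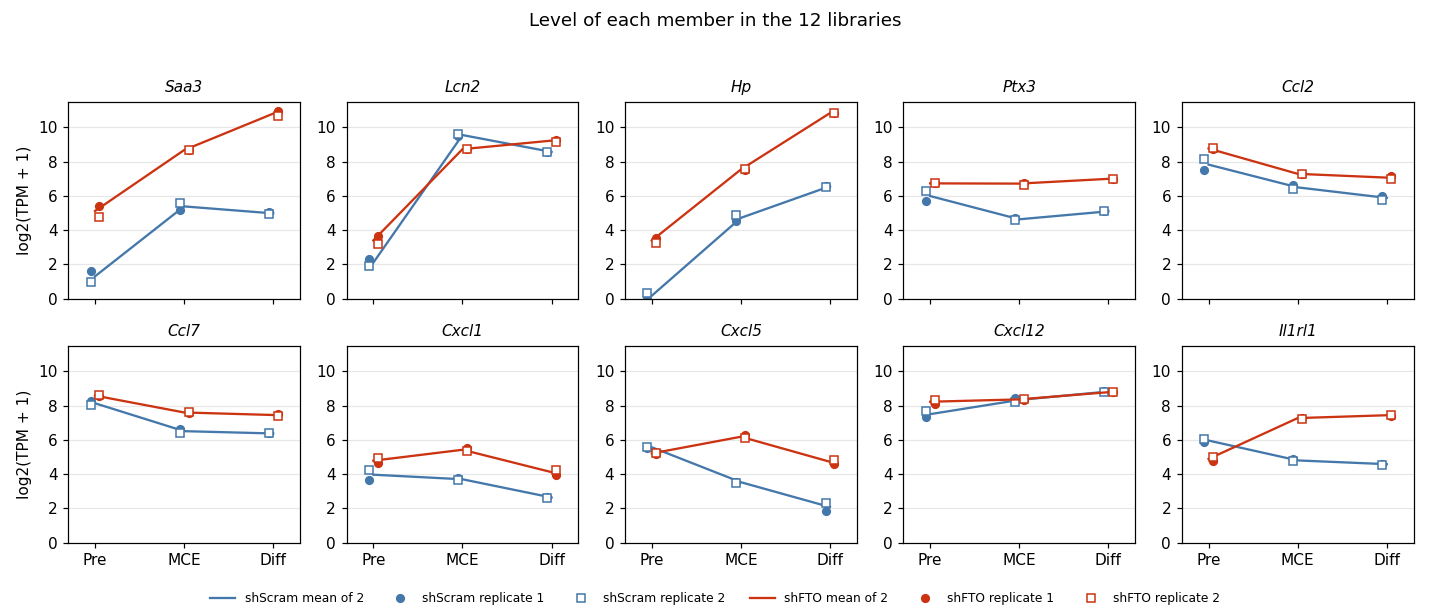
Level of each of the 10 genes, as log2(TPM + 1), at the 3 stages in shScram (blue) and shFTO (red) cells; filled circles are replicate 1, open squares replicate 2 and lines join the means of 2. Saa3 and Hp reach their highest values in shFTO Diff, Lcn2 crosses between the lines, and the lines overlap for Cxcl12 at MCE and Diff.

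Ccl2 (ENSMUSG00000035385, chromosome 11, 82035571 to 82037453, plus strand) and Ccl7 (ENSMUSG00000035373, chromosome 11, 82045712 to 82047525, plus strand) are neighbouring genes for chemokines that attract monocytes through the receptor CCR2. Ccl2 overlaps Gm17268 on the opposite strand, which makes its values uncertain in the same way. Ccl2 read 180.0 and 281 TPM in shScram Pre and 430.4 and 434 TPM in shFTO Pre. It fell from Pre to MCE in both lines, to 96.1 and 82.2 TPM in shScram MCE and 155 and 154 TPM in shFTO MCE. At Diff it read 63.4 and 52.4 TPM in shScram, against 141 and 124 TPM in shFTO. Ccl2 was therefore highest before induction and higher in shFTO at each stage, without overlap. Its log2 difference between the lines was 0.94 ± 0.20 at Pre (adjusted p = 0.0122; 0.62 without shScram Pre replicate 1, adjusted p = 0.00554) and 0.79 ± 0.20 at MCE (adjusted p = 0.0264). The MCE call was lost when any 1 MCE library was left out (adjusted p = 0.0717 and 0.163 without shScram replicates 1 and 2, 0.133 and 0.128 without those of shFTO) or no filter was set on low values (adjusted p = 0.0654).

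Ccl7 followed the same order of groups, with 305 and 258 TPM in shScram Pre and 379 and 387 TPM in shFTO Pre. At MCE it read 98.5 and 82.2 TPM in shScram, against 191 and 194 TPM in shFTO, and at Diff 81.9 and 81.7 TPM against 179.9 and 168 TPM. The lines did not overlap at any stage, and the fold between them was larger after induction. That change was not called (limma, log2 0.64 ± 0.18, adjusted p = 0.0816). It was 0.52 without shScram Pre replicate 1 and 0.76 without replicate 2, each with 1 control library left at Pre. The log2 difference was 0.45 ± 0.13 at Pre (adjusted p = 0.0325; 0.57 without shScram Pre replicate 1, adjusted p = 0.00264) and 1.09 ± 0.13 at MCE (adjusted p = 0.000603). The call at Pre was lost under quantile normalization (0.31, adjusted p = 0.130) and median-ratio scaling (0.36, adjusted p = 0.0956). The ratio of Ccl2 to Ccl7 in TPM ranged from 0.590 in shScram Pre replicate 1 to 1.14 in shFTO Pre replicate 1. These levels are per transcript length, so the pair was expressed at like levels in the 12 libraries.

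Cxcl1 (ENSMUSG00000029380, chromosome 5, 90891241 to 90893115, plus strand) and Cxcl5 (ENSMUSG00000029371, chromosome 5, 90759360 to 90761624, plus strand) encode chemokines that attract neutrophils through CXCR2. Cxcl1 read 11.7 and 18.2 TPM in shScram Pre, 12.4 and 11.6 TPM in shScram MCE and 5.35 and 5.06 TPM in shScram Diff. In shFTO it read 23.7 and 29.6 TPM at Pre, 44.3 and 39.5 TPM at MCE and 14.7 and 18.1 TPM at Diff. The shFTO libraries lay above those of shScram at each stage. The difference was 0.82 ± 0.21 on the log2 scale at Pre (adjusted p = 0.0225; 0.52 without shScram Pre replicate 1, adjusted p = 0.0371) and 1.72 ± 0.21 at MCE (adjusted p = 0.000712), where the mean TPM differed 3.50-fold.

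Cxcl5 moved in opposite directions in the lines from Pre to MCE. It read 45.3 and 47.6 TPM in shScram Pre and 34.7 and 37.2 TPM in shFTO Pre, a log2 difference of -0.36 ± 0.17 that was not called (adjusted p = 0.130; -0.40 without shScram Pre replicate 1, adjusted p = 0.133) except under quantile normalization (-0.52, adjusted p = 0.0416). At MCE it read 10.8 and 10.2 TPM in shScram but 75.4 and 67.9 TPM in shFTO. The groups did not overlap at either stage, and the order of the lines turned between them. At MCE the log2 difference was 2.65 ± 0.17 (6.81-fold, adjusted p = 2.50e-05), and its change from Pre was 3.02 ± 0.24 (adjusted p = 0.000643). At Diff, Cxcl5 read 2.58 and 3.98 TPM in shScram, against 23.2 and 27.6 TPM in shFTO, a 7.76-fold difference. The ratio of Cxcl5 to Cxcl1 in TPM was 3.87 and 2.62 in shScram Pre and 0.482 and 0.786 in shScram Diff, whereas the 6 shFTO libraries kept it between 1.26 and 1.72.

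Cxcl12 (ENSMUSG00000061353, chromosome 6, 117168535 to 117181367, plus strand) encodes a chemokine that stromal cells make without induction and that binds CXCR4 and ACKR3. It was the member with the smallest difference between the lines at MCE. The libraries read 349.6 and 295 TPM in shScram MCE and 325 and 331 TPM in shFTO MCE, and 469 and 434 TPM against 436 and 443 TPM at Diff, so the shFTO values lay inside the range of the shScram values at both stages. The log2 difference at MCE was 0.03 ± 0.15 (adjusted p = 0.930), and its sign turned under quantile normalization and median-ratio scaling (-0.04 and -0.05). At Pre, Cxcl12 read 159.7 and 203 TPM in shScram, against 276 and 323 TPM in shFTO, a difference of 0.72 ± 0.15 (adjusted p = 0.0113; 0.55 without shScram Pre replicate 1, adjusted p = 0.00669). From Pre to MCE it rose in shScram by 0.83 ± 0.15 (adjusted p = 0.00316), and the shFTO value was 0.14 ± 0.15 (adjusted p = 0.559). The difference between these changes was not called (limma, -0.69 ± 0.21, adjusted p = 0.106). It was -0.52 without shScram Pre replicate 1 and -0.87 without replicate 2, each with 1 control library left at Pre.

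Il1rl1 (ENSMUSG00000026069, chromosome 1, 40429570 to 40465415, plus strand), which encodes the IL-33 receptor ST2, was lower in shFTO before induction and higher after it. It read 58.3 and 64.2 TPM in shScram Pre and 26.0 and 31.3 TPM in shFTO Pre. At MCE the levels were 27.9 and 25.8 TPM in shScram, against 156 and 151 TPM in shFTO. There was no overlap at either stage. The log2 difference was -1.07 ± 0.12 at Pre (adjusted p = 0.000807; -1.14 without shScram Pre replicate 1, adjusted p = 8.65e-05) and 2.47 ± 0.12 at MCE (5.71-fold, adjusted p = 8.76e-06). The change of the difference, 3.55 ± 0.17 (adjusted p = 0.000147), was the largest of the 10 genes. At Diff the gene read 23.4 and 22.4 TPM in shScram, against 168 and 177 TPM in shFTO, a 7.52-fold difference, so the gap present at MCE was also present in the differentiated cells.

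Counted together, 8 of the 10 genes were called higher and 1 lower (Il1rl1) in shFTO at Pre, where 15.9% of all genes tested were called higher and 12.3% lower. These calls rest on a spread estimated over all 12 libraries: with only the Pre libraries in the fit, 0 members were called by limma, and 7 had an unadjusted p under 0.05. At MCE, 8 members were called higher and 1 lower (Lcn2), against 10.5% and 7.26% of all genes. The median log2 difference of the members was 0.78 at Pre and 1.90 at MCE, beside 0.08 and 0.05 for all genes tested. The members were chosen with earlier results of these data known. The counts and medians at Pre and MCE are therefore no independent support for the set. At Diff, 9 were higher and 1 (Cxcl12) lower by value, with a median of 1.69 beside 0.03 for all genes; 11.9% of all genes were called higher there and 9.31% lower, and nothing is read from this for genes chosen on that comparison. The change of the difference from Pre to MCE was called for 4 members (Lcn2, Ptx3, Cxcl5 and Il1rl1), against 5.11% of all genes in either direction. The comparisons at Pre and MCE share no libraries with each other, while the change of the difference uses both. Leaving out 1 shFTO Pre library leaves 1 in that group. Ptx3, Ccl2, Ccl7 and Cxcl1 lost their call at Pre when replicate 1 or replicate 2 was left out, and Cxcl12 without replicate 2. Calls over all genes moved in such fits as well. Without shFTO Pre replicate 1 or 2, the difference at Pre was 0.75 or 0.73 for Ptx3 and 0.95 or 0.93 for Ccl2. It was 0.47 or 0.43 for Ccl7, 0.97 or 0.66 for Cxcl1 and 0.84 or 0.61 for Cxcl12. Without shScram Pre replicate 1 or 2, the change of the difference was 0.52 or 0.76 for Ccl7 and 1.20 or 0.61 for Cxcl1. It was -0.52 or -0.87 for Cxcl12, -0.23 or -0.56 for Hp and 0.17 or -0.47 for Ccl2. Either fit leaves 1 control library at Pre, so no call is read from it.

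**Figure D2:**
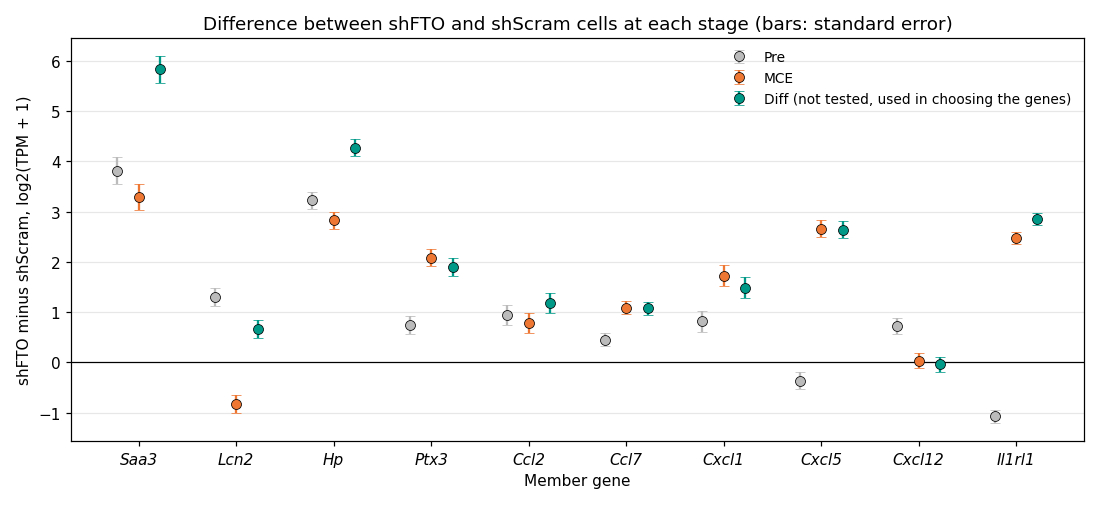
Difference between shFTO and shScram cells in log2(TPM + 1) for each of the 10 genes at Pre (grey), MCE (orange) and Diff (green), with the standard error from limma as bars. Lcn2 at MCE and Il1rl1 at Pre are the called values below 0, Cxcl12 is near 0 at MCE and Diff, and the Diff values are shown with no test.

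From Pre to MCE in shScram, 4 members (Saa3, Lcn2, Hp and Cxcl12) rose and 5 fell, against 12.2% and 26.9% of all genes. Lcn2 rose 226-fold (log2 7.45 ± 0.17, adjusted p = 1.84e-07), Saa3 27.0-fold (4.09 ± 0.26, adjusted p = 9.42e-06) and Cxcl12 1.78-fold, while Hp went from a listed 0 and 0.254 TPM to 22.1 and 28.6 TPM. Ptx3, Ccl2, Ccl7, Cxcl5 and Il1rl1 fell, by 1.16 (Il1rl1) to 2.04 (Cxcl5) on the log2 scale. With only the libraries of this comparison fitted, the calls of Ptx3, Ccl2, Il1rl1 and Cxcl12 were lost (adjusted p = 0.0653 to 0.132). The value for Cxcl1 was -0.27 ± 0.21 (adjusted p = 0.332), and -0.56 without shScram Pre replicate 1. In shFTO, 6 members rose and 2 fell (Ccl2 and Ccl7), against 8.80% and 19.9% of all genes. Lcn2 rose 43.6-fold, Saa3 11.8-fold, Hp 19.4-fold, Il1rl1 5.35-fold (log2 2.39 ± 0.12, adjusted p = 3.66e-06) and Cxcl5 1.99-fold (0.98 ± 0.17, adjusted p = 0.00276). The rise of Cxcl1 in shFTO (0.64 ± 0.21, adjusted p = 0.0485) was lost without any 1 of the 4 libraries compared (adjusted p = 0.0769 to 0.242), and also with a pseudocount of 0.1, no filter, no trend or a replicate block (adjusted p = 0.0513 to 0.0952).

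These changes are given as deposited, and the TPM of all genes shifted with the stage. The median log2 change of all genes tested was -0.17 in shScram and -0.18 in shFTO from Pre to MCE, and 0.23 and 0.17 from MCE to Diff. Under median-ratio scaling, which removes this shift, 3126 genes rose and 2882 fell from Pre to MCE in shScram, in place of 1942 and 4294, and 2178 rose and 2305 fell in shFTO, in place of 1405 and 3180. From MCE to Diff the numbers were 1923 and 1680 in place of 3190 and 833 in shScram, and 2537 and 1898 in place of 3222 and 1034 in shFTO. The 4.09 of Saa3 and the -2.04 of Cxcl5 are far from the shift, while the 0.47 of Ptx3 from MCE to Diff in shScram (adjusted p = 0.0803) and the 0.49 of Cxcl12 in the same comparison are closer to it. At MCE between the lines the scaling gave 1498 higher and 1439 lower, in place of 1679 and 1159.

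From MCE to Diff, Saa3 was set aside because it was chosen on the Diff libraries, which leaves 9 members. The other members joined it with results of the Diff libraries known, so the p-values here are no independent support for their part in the set. In shScram, 2 rose (Hp and Cxcl12) and 3 fell (Lcn2, Cxcl1 and Cxcl5), against 20.0% and 5.22% of all genes. Hp rose 3.67-fold (log2 1.85 ± 0.16, adjusted p = 0.000175), Cxcl5 fell by 1.45 ± 0.17 on the log2 scale (adjusted p = 0.000664) and Cxcl1 by 1.07 ± 0.21 (adjusted p = 0.00683). Ccl2 was also called lower under quantile normalization (-0.69, adjusted p = 0.0243) and median-ratio scaling (-0.87, adjusted p = 0.00724). Il1rl1 was called lower under the same scalings (-0.41, adjusted p = 0.0273, and -0.46, adjusted p = 0.0142). The rise of Cxcl12 (0.49 ± 0.15, adjusted p = 0.0437) was lost without any 1 of the 4 libraries (adjusted p = 0.0630 to 0.263), under median-ratio scaling (0.24, adjusted p = 0.195), and with no filter, no trend or a replicate block (adjusted p = 0.0549 to 0.0706). So was the fall of Cxcl1 without shScram Diff replicate 2 (adjusted p = 0.0516), where 3 calls were left. In shFTO, Hp rose and Cxcl1 and Cxcl5 fell, against 20.2% and 6.48% of all genes. Hp rose 9.85-fold (log2 3.29 ± 0.16, adjusted p = 1.56e-05), Cxcl1 fell by 1.31 ± 0.21 (adjusted p = 0.00233) and Cxcl5 by 1.46 ± 0.17 (adjusted p = 0.000509). Comparisons of Pre with MCE and of MCE with Diff in 1 line share the MCE libraries.

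Set against the whole transcriptome, the 10 genes summed to 816 to 952 TPM in shScram Pre, 1381 to 1395 TPM in shScram MCE and 1133 to 1179 TPM in shScram Diff. In shFTO they summed to 1337 to 1390 TPM at Pre, 2055 to 2057 TPM at MCE and 5067 to 5496 TPM at Diff. Saa3, Hp and Lcn2 made up 3983 to 4408 TPM of the sum in shFTO Diff and 500.1 TPM in either library of shScram Diff. In preadipocytes of both lines these 3 genes summed to 3.97 to 64.0 TPM, and Ccl2, Ccl7 and Cxcl12 led the sum.

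**Figure D3:**
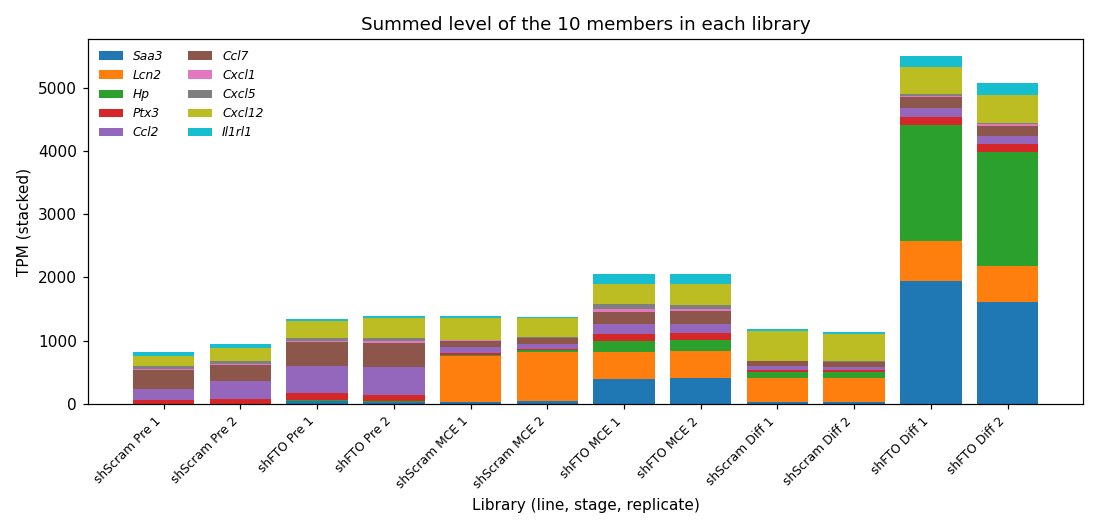
Stacked TPM of the 10 genes in each of the 12 libraries, ordered by stage and line, with each gene in its own colour. The bars start at 0 and reach 5067 and 5496 TPM in the shFTO Diff libraries, mostly from Saa3 and Hp, and at most 2057 TPM in the other libraries.

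Other acute phase genes did not move as a block. Of a list of 28, 16 were tested; 9 were called higher and 5 lower in shFTO at Diff, 6 and 4 at MCE and 3 and 2 at Pre, with the shares of all genes as above. The orosomucoids, which bind drugs and lipids in plasma, went down. Orm3 read 211 and 236 TPM in shScram Diff and 13.3 and 10.8 TPM in shFTO Diff (log2 -4.11 ± 0.17, adjusted p = 1.29e-06), and Orm1 read 84.8 and 108 TPM against 9.91 and 12.4 TPM (-3.00 ± 0.24, adjusted p = 5.91e-05). Orm2 was also lower, at -3.10 ± 0.23 (adjusted p = 3.64e-05), but these genes are near-identical copies, so the split of reads between them is uncertain. Serpina3n, a protease inhibitor, went the other way with 11.1 and 12.6 TPM in shScram Diff and 195 and 177 TPM in shFTO Diff (3.87 ± 0.17, adjusted p = 1.82e-06). The metallothioneins Mt1 and Mt2, which bind zinc and copper, were the list's most abundant genes, and Mt2 read 570.5 and 569 TPM against 3373 and 2826 TPM (2.44 ± 0.38, adjusted p = 0.00212). Mt1 was higher by 0.71 ± 0.15 at Diff (adjusted p = 0.0118). Lbp, which carries bacterial lipopolysaccharide, differed at Pre, at 0.458 and 0.6004 TPM in shScram, against 8.80 and 8.46 TPM in shFTO (2.66 ± 0.12, adjusted p = 9.07e-06; 2.59 without shScram Pre replicate 1), and was not called at MCE or Diff (adjusted p = 0.0664 and 0.0705).

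The ligand of ST2 differed as well. Il33, listed at 0 and 0.386 TPM in shScram Pre and 1.53 and 2.25 TPM in shFTO Pre, read 3.84 and 3.32 TPM in shScram MCE and 22.4 and 26.0 TPM in shFTO MCE. At Diff it read 1.43 and 1.57 TPM in shScram, against 63.6 and 77.0 TPM in shFTO. The log2 difference was 1.29 ± 0.21 at Pre (adjusted p = 0.00405; 1.05 without shScram Pre replicate 1, adjusted p = 0.00389), 2.46 ± 0.21 at MCE (adjusted p = 0.000112) and 4.83 ± 0.21 at Diff (adjusted p = 1.70e-06). Il33 was thus higher in shFTO at all 3 stages, and Il1rl1 at MCE and Diff. Of the IL-33 and IL-1 receptor list (18 genes, 14 tested), 3 were called higher and 3 lower at Pre, and 3 and 1 at both later stages. The receptor Il1r1 and the kinase Irak1, its most abundant genes, were not called at MCE or Diff (adjusted p = 0.452 to 0.922), and Il1r1 at Pre was at -0.57 ± 0.18 (adjusted p = 0.0416; 0.0658 without shScram Pre replicate 1). The cytokine Il18 read 36.2 and 14.3 TPM in shScram Pre and 8.51 and 4.28 TPM in shFTO Pre (-1.75 ± 0.40, adjusted p = 0.0156; -1.11 without shScram Pre replicate 1, adjusted p = 0.0205).

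Among the CC chemokines that are not members (17 genes, 10 tested), 2 were called higher and 0 lower at Pre, 3 and 1 at MCE, and 2 and 2 at Diff. Ccl5, which attracts T cells, read 13.7 and 33.1 TPM in shScram Pre and 109 and 89.9 TPM in shFTO Pre, and 6.53 and 8.08 TPM against 49.3 and 52.0 TPM at MCE. Its difference of 2.16 ± 0.42 at Pre (adjusted p = 0.00825; 1.55 without shScram Pre replicate 1), 2.64 ± 0.42 at MCE (adjusted p = 0.00291) and 3.14 ± 0.42 at Diff (adjusted p = 0.000973) was called at each stage. Ccl25 was not called at any stage (adjusted p = 0.229 to 0.623; 0.699 at Pre without shScram Pre replicate 1). Of the CXC and other chemokines (14 genes, 6 tested), 2 were higher and 1 lower at Pre and at MCE, and 2 and 0 at Diff. Cxcl10, an interferon-induced chemokine, read 0.651 and 0.655 TPM in shScram MCE and 10.9 and 11.4 TPM in shFTO MCE (2.88 ± 0.17, adjusted p = 2.12e-05), and was called higher at Pre (1.88 ± 0.17, adjusted p = 0.000242; 1.98 without shScram Pre replicate 1) and Diff (3.15 ± 0.17, adjusted p = 5.31e-06). The difference of Cx3cl1 was not called at any stage (adjusted p = 0.121 to 0.943; 0.675 at Pre without shScram Pre replicate 1).

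Receptors of the members were mostly low, and 7 of 20 were tested. Of these, 1 was called higher and 1 lower at Pre, and 3 and 0 at both MCE and Diff. Ackr3, the scavenging receptor of Cxcl12, read 16.3 and 15.3 TPM in shScram MCE and 56.1 and 52.6 TPM in shFTO MCE (1.72 ± 0.13, adjusted p = 7.16e-05), while its ligand did not differ beyond the spread there. At Diff it read 12.9 and 12.4 TPM against 21.2 and 24.6 TPM (0.80 ± 0.13, adjusted p = 0.00310). At Pre it was not called (0.29 ± 0.13, adjusted p = 0.122), and its value was 0.41 without shScram Pre replicate 1. Scarb1, a lipoprotein receptor that also takes up serum amyloid A, was not called at any stage (adjusted p = 0.226 to 0.408), and at Pre its value of 0.59 turned to -0.22 without shScram Pre replicate 1 (adjusted p = 0.184).

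NF-kB factors and their feedback genes (19 genes, 17 tested) gave 3 higher and 3 lower at Pre, 0 and 3 at MCE and 1 and 3 at Diff. The list's median log2 difference was 0.23 at Pre, 0.04 at MCE and -0.06 at Diff, beside 0.08, 0.05 and 0.03 for all genes. Its most abundant genes were the adhesion molecule Vcam1 and the TNF-induced Tnfaip2. Vcam1 read 214 and 169 TPM in shScram Pre and 88.4 and 105 TPM in shFTO Pre (-0.98 ± 0.14, adjusted p = 0.00245; -0.81 without shScram Pre replicate 1, adjusted p = 0.000495), and was not called at MCE or Diff (adjusted p = 0.572 and 0.0773). Tnfaip2 was called at Pre only (1.22 ± 0.33, adjusted p = 0.0274; 0.57 without shScram Pre replicate 1, adjusted p = 0.00140), with 0.60 ± 0.33 at MCE (adjusted p = 0.273) and 0.75 ± 0.33 at Diff (adjusted p = 0.149). Over all lists, 116 genes of which 70 were tested, 14 were called higher and 10 lower at Pre, 17 and 10 at MCE and 20 and 11 at Diff, with medians of 0.18, 0.15 and 0.22. Of all genes tested, 15.9% were called higher and 12.3% lower at Pre, 10.5% and 7.26% at MCE and 11.9% and 9.31% at Diff. These shares also stand beside the counts of the single lists. The count of 24 at Pre moved in both directions when 1 Pre library was left out, as did the count over all genes.

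**Figure D4:**
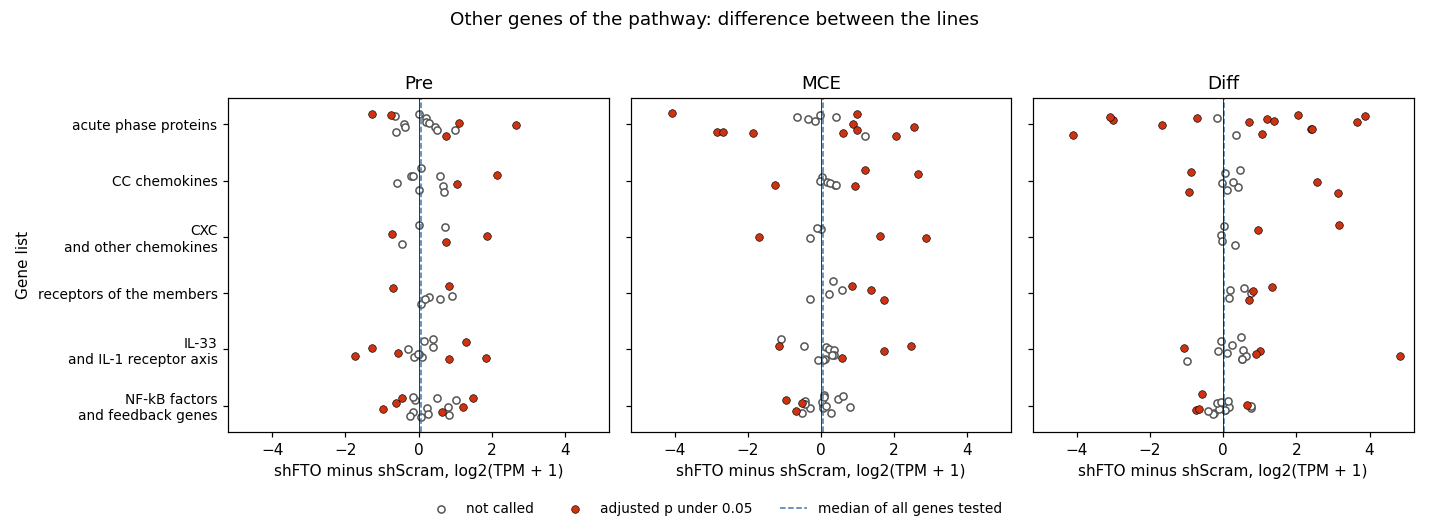
Difference between shFTO and shScram in log2(TPM + 1) for the 70 tested genes of 6 lists that are not members, at Pre, MCE and Diff; red points have an adjusted p under 0.05, open points do not, and the dashed line is the median of all genes tested. The acute phase list spreads to both sides at MCE and Diff (9 higher and 5 lower at Diff), and the medians of the NF-kB list are 0.23, 0.04 and -0.06.

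Markers of other cells that make these proteins or are attracted by them were mostly low, with Cd14 the highest. All 5 hepatocyte markers and all 4 endothelial markers were under 1 TPM in the 12 libraries. Of 8 macrophage and leukocyte markers, Ptprc and Itgam were under 1 TPM and Adgre1 was listed at 0 in the 12 libraries. The 8 markers summed to 17.6 to 27.5 TPM in shScram Pre, 7.17 to 8.74 TPM in shScram MCE and 11.2 to 12.5 TPM in shScram Diff. In shFTO they summed to 35.8 to 38.3 TPM at Pre, 50.7 to 51.1 TPM at MCE and 46.8 to 47.6 TPM at Diff. Most of the sum after induction in shFTO was Cd14, the co-receptor for lipopolysaccharide, at 48.4 and 47.6 TPM in shFTO MCE against 4.39 and 5.35 TPM in shScram MCE. Lyz2 reached 7.27 TPM and Aif1 9.12 TPM in preadipocytes. Of 4 neutrophil markers 3 were under 1 TPM, and S100a8 reached 8.77 TPM in shScram Diff and 11.6 TPM in shFTO Diff. The part of such cells in the results was not tested.

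The genes whose pattern over the 12 libraries was most like that of Saa3 were sought among 10798 genes with a mean of 5 TPM or more, by Pearson's r of log2(TPM + 1). They were the complement gene C4b (r = 0.981), Sra1 (0.974), Rell1 (0.973), Il33 (0.963) and Auh (0.963). C4b had mean levels of 5.50 TPM in shScram MCE, 19.2 TPM in shFTO MCE, 7.57 TPM in shScram Diff and 66.7 TPM in shFTO Diff. Of the members, Hp was closest to Saa3 (r = 0.946, place 18), followed by Lcn2 (0.709) and Cxcl12 (0.692), while Ccl2 and Ccl7 were at -0.18 and -0.15. For Cxcl12 the closest genes were Adcy9 (r = 0.985), Stim1 (0.977), Per2 (0.964), Ticam1 (0.963) and Sufu (0.960). These values describe 12 libraries that fall into 6 groups and share their stages, and carry no test.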

How the data were processed

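Gene-level TPM values of 12 RNA-seq libraries were used, 2 in each of 6 groups of 3T3-L1 cells, grouped by their titles. Per the submitters' notes and the paper, adapters were removed by Trim Galore (0.6.5), reads were mapped by HISAT2 (2.1.0) on GRCm38, and the TPM values that the authors deposited came from StringTie (2.1.4) with Ensembl gene models. Their own test was DESeq2 1.30.1 on counts, which were not used here. TPM is scaled to a fixed total, so a strong rise of some genes lowers the others, and it holds no read numbers, which leaves the depth unknown. The libraries held 20853 to 24018 genes above 0. Whether counting used strand is not given in the sources used here.

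From these, log2(TPM + 1) was computed, and the 15968 of 55487 genes that reached 1 TPM in 2 or more libraries entered limma (3.58.1, R 4.3.3; a mean per group over all 12 libraries, moderated with a trend, 6 residual degrees of freedom), two-sided, with Benjamini-Hochberg adjustment over all genes tested and a call at an adjusted p under 0.05. SE is that of limma. The fit was checked on simulated data, which gave each gene the same spread in all groups. That check therefore does not cover the wider spread between the shScram Pre libraries. Coordinates are those of GENCODE M21 (GRCm38). Other steps used Python 3.11.15, numpy 2.4.6, pandas 2.3.3 and matplotlib 3.10.9.

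The members, gene lists and markers were chosen with earlier results of these data known. Besides all members and Fto, the named genes are the 2 of highest mean TPM in each list, at each stage the called list genes with the 2 largest positive and 2 largest negative differences, the 5 genes most like Saa3 and Cxcl12, and markers of other cells with a group mean of 5 TPM or more. Replicate numbers gave no sign of pairing the libraries: the differences between replicates 2 and 1 correlated at -0.29 to 0.17 between groups. Such weak correlations cannot show whether libraries of the same number were handled together, which is not known. The alternatives were a pseudocount of 0.1, no filter, a mean TPM of 5 or more, 2 scalings, fewer libraries, no trend, a replicate block, a threshold of 2-fold at an unadjusted p under 0.05, and each library left out.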

Additional observations from a re-analysis of the deposited data

Results flagged for a closer look

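The difference between shFTO and shScram changed from Pre to MCE for 4 of the 10 genes by the test of that change (limma, SE over 12 libraries). The values on the log2(TPM + 1) scale were -2.12 ± 0.25 for Lcn2 (adjusted p = 0.00232), 1.34 ± 0.24 for Ptx3 (adjusted p = 0.0180), 3.02 ± 0.24 for Cxcl5 (adjusted p = 0.000643) and 3.55 ± 0.17 for Il1rl1 (adjusted p = 0.000147). The call for Ptx3 was lost when 1 of the shFTO Pre, shScram MCE or shFTO MCE libraries was left out (adjusted p = 0.0631 to 0.0937) and when only the Pre and MCE libraries were fitted (adjusted p = 0.0929), and held in 9 of 16 alternatives, while the other 3 held in all 16 alternatives.

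Other genes moved in opposite directions in all libraries of the groups compared, and these differences were not tested because each contains the comparison of the lines at Diff, by which the genes were chosen. From MCE to Diff, Saa3 moved up in shFTO and down in shScram, a difference of 2.54 between the lines. Lcn2 did likewise, with a difference of 1.49, which is also the change of its knockdown difference from MCE to Diff. From Pre to Diff the knockdown difference changed sign for Cxcl5, by 3.00, and for Il1rl1, by 3.93. Il1rl1 also moved in opposite directions from MCE to Diff, by 0.39, but under median-ratio scaling its change in shFTO was -0.02.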

How the results depend on the processing

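Of 856 alternatives to the 68 tested values of single members, 767 kept the direction and the side of the threshold, 57 lost the call, 23 gained one and 9 turned in direction. With only the libraries of a comparison in the fit, which leaves fewer samples for the spread, 0 members and 0 list genes were called at Pre (limma; 7 members, 18 list genes and 2790 of all genes had an unadjusted p under 0.05, and Fto itself had an adjusted p of 0.109), 5 members from Pre to MCE in shScram and 9 from MCE to Diff in shFTO. With an unadjusted p under 0.05 and a 2-fold change, 4 members and 13 list genes were called at Pre, 5 members from Pre to MCE in shFTO, 3 from MCE to Diff in shScram and 19 list genes at Diff. With a mean TPM of 5 or more, which tests fewer genes, 20 list genes were called at Diff. No result about members or list genes is read from these counts, since the calls over all genes moved with these settings as well. Outside the fits with 1 library left out, they ranged from 504 to 6234 from Pre to MCE in shScram and from 2560 to 7999 in shFTO. From MCE to Diff they ranged from 1938 to 6454 in shScram and from 2226 to 8684 in shFTO. When 1 library was left out, members called ranged from 4 to 9 at Pre, were 7 at MCE, 9 to 10 and 7 from Pre to MCE in shScram and shFTO, 3 to 4 and 3 from MCE to Diff, and 3 to 9 for the change of the difference, and list genes from 10 to 44, 19 to 22 and 22 to 26 at Pre, MCE and Diff.

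Values near 0 turned in direction. Cxcl12 at MCE was -0.044 under quantile normalization, -0.049 under median-ratio scaling and -0.092 to 0.153 when 1 library was left out, the lowest without shScram MCE replicate 2, and at Diff it was -0.096 to 0.015, the highest without shScram Diff replicate 1. Cxcl1 from Pre to MCE in shScram was -0.56 without shScram Pre replicate 1 and 0.030 without replicate 2. Ptx3 from Pre to MCE in shFTO was 0.045 under quantile normalization, 0.21 under median-ratio scaling and -0.074 to 0.046 without shFTO MCE replicates 1 and 2. Il1rl1 from MCE to Diff in shFTO was -0.022 under median-ratio scaling, and the change of the difference of Ccl2 was -0.47 to 0.17, the highest without shScram Pre replicate 1. Beyond these constructions the cause was not tested.

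With a replicate block, 9 members were called at Pre and 9 at MCE, the same genes as without the block. Between stages, 9 and 7 were called from Pre to MCE in shScram and shFTO, and 4 and 3 from MCE to Diff. The change of the difference was called for 4 members. List genes called were 21, 27 and 31 at Pre, MCE and Diff. Over all genes, calls at Pre ranged from 0 to 10025 around 4510, at MCE from 1215 to 5913 around 2838, at Diff from 1639 to 6613 around 3391 and for the change of the difference from 239 to 8378 around 816. With 2 libraries per group and no depth, levels of about 1 TPM, such as Saa3 and Hp in shScram Pre, are the least certain.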
